A study of Caenorhabditis elegans with 2 samples.

Results

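The genes examined were 9 *Caenorhabditis elegans* genes for GATA transcription factors other than the tagged one, taken by name: *elt-1*, *elt-3*, *elt-2*, *elt-4*, *elt-7*, *end-1*, *end-3*, *med-1* and *med-2*, of 19973 protein-coding genes in all. Each was read with its gene body and 5000 bp upstream of its start, called its window here. The peaks came from chromatin immunoprecipitation sequencing of EGL-18, itself a GATA factor, in whole young adults of strain RW12252 at 63 h, grown up from larvae that had been bleached, starved and so synchronised at L1. All animals carried st12252, a CRISPR insertion of TY1, EGFP and 3xFLAG at *egl-18* on chromosome IV, and an antibody to GFP was used. There was 1 group of 2 biological replicates, and fragments were sonicated to a size range of 200 to 800 bp. No untagged, other-stage or control library was analysed here, so heights are given without a background track, and the 2 replicates are of a single strain.

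GATA factors are zinc finger proteins that bind DNA around the letters GATA, and in the worm they act in cascades. MED-1 and MED-2 act in the embryonic precursor of mesoderm and endoderm, END-1 and END-3 then specify the endoderm, and ELT-2 with ELT-7 drives and holds the intestinal programme for life. ELT-1 specifies the epidermis in the embryo and ELT-3 acts below it in the major epidermis, while EGL-18 is known from the lateral seam cells and the vulva.

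Peak lists were of 2 kinds. A ranked list holds every peak whose rank was compared between a pair of inputs by the irreproducible discovery rate (IDR), and a thresholded list holds those that passed. The series ranked list had 117695 peaks with a median height of 22.9 (quartiles 14.3 and 32.7), and the series thresholded list had 699 with a median height of 81.6. Replicate 1 had 64911 ranked and 199 thresholded peaks, and replicate 2 had 54253 and 232. Height is the authors' value on a scale that is not stated, so it is compared within a list only. The score runs up to 1000, and a score of 540 stands for a global IDR of 0.05, 830 for 0.01. In the series ranked list, 40.5% of the peaks had the lowest score, 60. In whole animals, binding in few cells and weak binding in many cells cannot be told apart, and with 1 condition there was no contrast to test, so the values below are descriptions without p-values.

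None of the 9 GATA factor genes had a peak of the series thresholded list in its window, against 5.47% of all protein-coding genes. None had one in the thresholded list of replicate 1 (1.59% of all genes) or in that of replicate 2 (1.89%). With shares this low over all genes, a count of 0 of 9 is near the background. In the series ranked list, 8 of the 9 had peaks, 79 in all, and 1 of the 9, *end-3*, had a peak at a score of 540 or more, a level reached in 18.3% of all genes. In the other series ranked list, of 109080 peaks and called the second series list here, *end-3* was again the 1 gene of 9 at that level, against 14.8% of all genes. The gene without any ranked peak was *elt-4*, and 4.88% of all genes had none.

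The 79 peaks lay at a density of 1.20 per kb of window, against 1.21 per kb over the windows of all protein-coding genes and 1.17 per kb over the genome. Their median height was 22.6, beside the list's 22.9, and 35 of them (44.3%) had the lowest score. The strongest peak of a window was the highest for *end-3*, followed by *med-1*, *end-1*, *elt-2*, *elt-7*, *med-2*, *elt-1* and *elt-3*. The 5 from *end-1* to *elt-1* in that order spanned only 41.1 to 44.4, and neighbours among them are not separated by these data. Over all genes the median of the strongest height was 44.7, and *end-3* and *med-1* exceeded it.

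**Figure D1:**
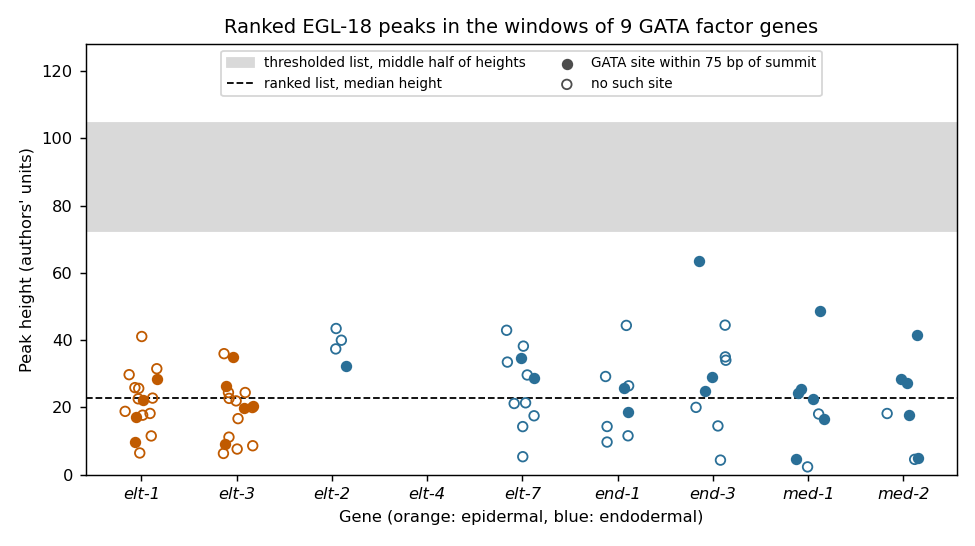
Height of every series ranked peak (authors' units, each point 1 peak) in the windows of the 9 genes, filled where a GATA site lies within 75 bp of the summit, with the list's median of 22.9 dashed and the range between the quartiles of the thresholded list, 72.4 to 104, shaded. All peaks of these genes lie below the shaded band, the highest at 63.5 for *end-3*, and *elt-4* has none. The band comes from another list and is for orientation only. Thresholded peaks also occur below it and below 63.5, as those nearest to *elt-1* (58.0) and *med-1* (55.5).

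**Figure D2:**
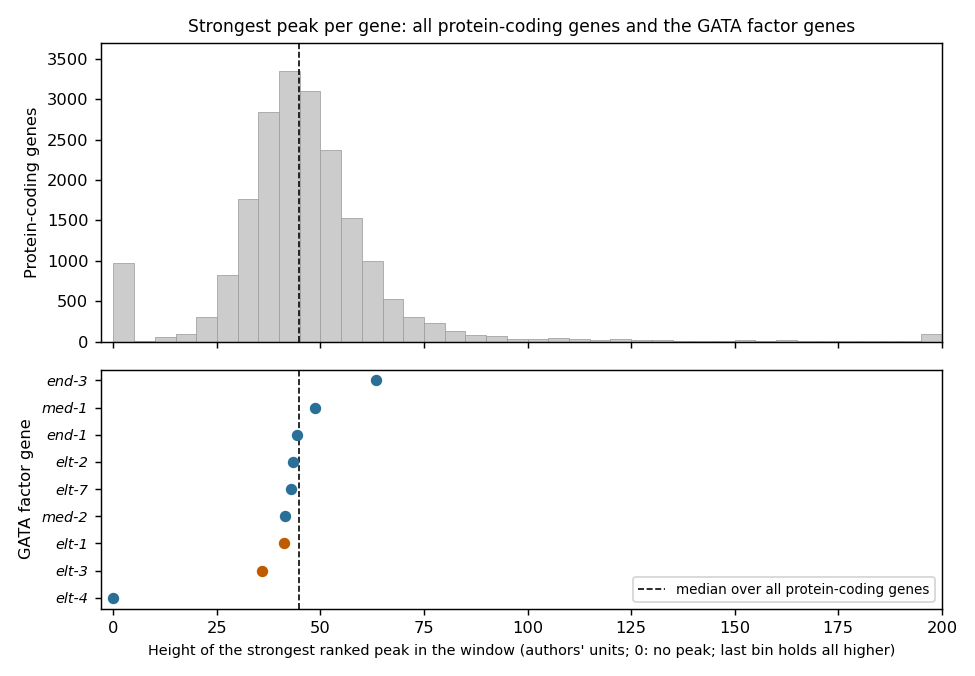
Upper panel, number of protein-coding genes by the height of the strongest series ranked peak in the window (authors' units, 974 genes without a peak at 0); lower panel, the same height for each GATA factor gene, with the median over all genes of 44.7 dashed. Of the GATA factor genes, *end-3* and *med-1* lie to the right of the median and *elt-4* is at 0.

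To show what sequence the summits lay in, the summits of selected peaks are printed with 75 bp on either side from the RefSeq genome (WBcel235, the same sequence as ce11), plus strand, 5′ to 3′, with GATA sites in capitals. A GATA site here is GATA with A or T before it and A or G after it, on either strand, so that a site on the reverse strand shows as TATC with C or T before it and A or T after it. The first pair is the highest peak of all 9 genes, upstream of *end-3*, and the peak next to the start of *elt-2*. In the series ranked list, *elt-2* was the gene with the fewest peaks besides *elt-4*. The following pair belongs to the epidermal genes and shows their highest peak with a site that is nearest to their own start. All sequences of these pairs hold a site and do not stand for the summits in general. The strongest peaks of *elt-1*, *elt-3*, *elt-2*, *elt-7* and *end-1* had no site within 75 bp.
end-3, V:14011404-14011554: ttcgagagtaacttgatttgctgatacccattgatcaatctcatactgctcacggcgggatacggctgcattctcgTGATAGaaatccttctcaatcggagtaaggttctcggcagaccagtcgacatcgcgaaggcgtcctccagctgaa
elt-2, X:10480767-10480917: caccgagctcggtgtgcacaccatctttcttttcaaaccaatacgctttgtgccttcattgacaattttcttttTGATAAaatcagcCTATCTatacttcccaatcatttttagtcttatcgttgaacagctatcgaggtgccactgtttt
elt-1, IV:9613321-9613471: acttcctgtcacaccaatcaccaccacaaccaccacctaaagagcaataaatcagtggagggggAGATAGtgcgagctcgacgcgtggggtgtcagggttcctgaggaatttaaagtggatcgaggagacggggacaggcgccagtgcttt
elt-3, X:13935271-13935421: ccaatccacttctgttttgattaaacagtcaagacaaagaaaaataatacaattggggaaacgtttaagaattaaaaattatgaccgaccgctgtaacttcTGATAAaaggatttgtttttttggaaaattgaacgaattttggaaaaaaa

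Of the 79 summits, 28 had a GATA site within 75 bp (35.4%, exact Clopper-Pearson 95% interval 25 to 47.0), against 26.0% of all peaks of the list. Of these, 11 lay at *med-1* and *med-2*, which had 15 peaks (73.3%), and without this pair the share was 17 of 64 (26.6%, 16.3 to 39.1) in this list. Without the pair, the share was 44.1% in replicate 1 (15 of 34, 27.2 to 62.1), 34.3% in replicate 2 (12 of 35, 19.1 to 52.2) and 32.4% in the second series list (22 of 68, 21.5 to 44.8). The shares over all peaks of these lists were 24.9%, 25% and 25.8%, so the share without *med-1* and *med-2* was near the whole list's in the series ranked list and above it by more in the other lists. The intervals cover the number of peaks only, and peaks of one window share a locus. The windows themselves held 210 GATA sites, or 3.18 per kb, where all protein-coding windows held 2.41 per kb. The summits thus lay in sequence with more sites than average, and the part of that in the share near summits was not tested. The median distance from a summit to the nearest site was 116.5 bp, and 168.5 bp over the whole list. The median GC content near the summit was 38.4% in these peaks and in the whole list.

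Among the epidermal genes, *elt-1* (WBGene00001249, IV:9614995-9620280, plus strand), which encodes the factor that specifies epidermal fate, had 16 series ranked peaks in 10.3 kb, with heights from 6.48 to 41.1 and a median of 22.5. Of these, 9 were intergenic, 5 in introns, 1 in a coding exon and 1 in the 3′ UTR. The strongest lay 1798 bp upstream of the start with a series height of 41.1, a score of 355 and rank 13708. It overlapped a peak of height 24.9 in replicate 1 (score 96) and one of height 15.2 in replicate 2 (score 32), whose summit was 143 bp away. Both replicates thus had a peak there, above the median of its own list (17.9) in replicate 1 and below it (16.6) in replicate 2. The strongest peak had no GATA site within 75 bp. The neighbouring peak shown above, 1599 bp upstream with a height of 28.4, had its AGATAG 8.5 bp from the summit. Replicate 1 had a separate peak of height 13.0 there, 15 bp away, while the single replicate 2 peak overlapped both series peaks and lay nearer to this one. The only peak of *elt-1* between 1000 bp upstream and 200 bp downstream of the start, the promoter here, lay at 510 bp upstream with a height of 29.7. It was met by a peak of height 13.7 in replicate 2 and by none in replicate 1.

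*elt-3* (WBGene00001251, X:13934874-13941216, plus strand), whose product acts in the differentiation of the major epidermis, also had 16 series ranked peaks, in 11.3 kb, with heights from 6.34 to 36.0 and a median of 20.3. Its strongest peak was the lowest of the 8 genes with a peak, and 22.4% of all genes had a lower one. That peak lay in an intron 3865 bp downstream of the start, with a series height of 36.0, a score of 282 and rank 22190. In replicate 1 it matched a peak of height 31.4 (score 36), no peak of replicate 2 overlapped it, and it was not in the second series list. The next, 4075 bp upstream and nearer to the start of the neighbouring gene *meg-1*, had a height of 35, a GATA site 26.5 bp from the summit, a match of height 20.9 in replicate 2 and none in replicate 1. The support of these peaks thus changed from one replicate to the other. The intronic peak shown above, 472 bp downstream of the start with a height of 26.3 and a TGATAA 28.5 bp from the summit, was met in neither replicate's own list. *elt-3* had 9 peaks in introns. No peak of the series ranked list lay in its promoter, whereas the second series list had one there with a height of 16.5, 11 bp upstream of the start.

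Among the endodermal genes, *elt-2* (WBGene00001250, X:10481240-10483441, plus strand), the main intestinal GATA factor, had few peaks in the series ranked list, and all of them were above that list's median. There were 4 in 7.20 kb, or 0.56 per kb. Replicate 1 had 6 peaks in the window, more than at *elt-1*, *end-1*, *med-1* or *med-2*. Replicate 2 had 4, more than at *end-1* or *med-2*. From upstream to downstream, the heights were 32.2 at 398 bp upstream of the start, 37.4 at 475 bp downstream, 40.0 at 1339 bp and 43.5 at 1900 bp, so that the highest lay in a coding exon near the 3′ end. The heights at these places in replicate 1 were 17.5, 21.6, 34.3 and 21.0. Replicate 1 had 2 further peaks, 651 bp upstream (height 11.0) and 2098 bp downstream (height 3.22), both with a GATA site. Of its 6 peaks, 3 lay below that list's median height of 17.9. In replicate 2 the first place had no peak, and the peaks with the nearest summits to the others had heights of 13.4, 5.86 and 19.8, the one of 13.4 with its summit more than 150 bp away. A further replicate 2 peak, of height 15.3, lay 1104 bp downstream. The 34.3 of replicate 1 was above the strongest peak of 82.8% of all genes in that list, and the strongest of replicate 2 above that of 29.2%. Replicate 1 therefore placed the maximum of *elt-2* at the third peak and replicate 2 at the fourth. Of the 4 series peaks, the promoter peak, at 398 bp upstream, was the one with GATA sites. Its window above holds a TGATAA that spans the summit, its centre 1.5 bp from it, and a CTATCT beside it, and the peak had a score of 197. From there downstream, the scores of the further series peaks were 60, the lowest of the list, then 287 and 268.

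*elt-4* (WBGene00001252, X:10475527-10475959, plus strand) is a small gene upstream of *elt-2* that is held to derive from it by duplication. No ranked peak of either series list or of either replicate lay in its 5.43 kb window, while the windows of 381 genes (1.91% of all) were empty in the 3 ranked lists that were counted, those of the series and of each replicate. The empty stretch was longer than the window. In the series ranked list no summit lay between X:10463109-10480842, a gap of 17733 bp whose right edge is the promoter peak of *elt-2*. The list's median gap was 605 bp, and 213 of 117689 gaps (0.181%) were as long. Such shares count gaps and not the sequence they cover, and long gaps cover a larger share of the sequence than of the gaps. By gene, 4.88% of all had no series ranked peak in the window. The gap was 16491 bp in replicate 1 and 17617 bp in replicate 2, where 0.393% and 0.409% of gaps were as long. It held *elt-4*, the protein-coding gene *C39B10.7*, the non-coding genes *linc-83* and *C33D3.6*, and the 5′ end of *C39B10.1*. Repeated sequence was rare there, with 0.311% of its 31-base words occurring elsewhere in the genome against 8.73% genome-wide. Its GC content was 32.4%, below the 35.4% of the genome. GATA sites were present, 54 in all or 3.05 per kb. Most of the upstream sequence of *elt-2* lies in this gap as well, and in the series ranked list *elt-2* had no peak farther upstream than 398 bp. In replicate 1 the right edge of the gap was the *elt-2* peak 651 bp upstream.

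*elt-7* (WBGene00015981, V:4770670-4773086, plus strand), which acts beside *elt-2* in the intestine, had 11 peaks in 7.42 kb with heights from 5.37 to 42.9. The strongest lay 4224 bp upstream, in an intron of the neighbouring gene *C18G1.8* and 155 bp from the start of that gene, with a series height of 42.9, a score of 326, and heights of 18.2 in replicate 1 and 19.8 in replicate 2. By distance, 4 of the 11 were nearest to the start of *elt-7* itself. Closest to it was a peak 63 bp downstream of the start, with a series height of 34.6, a replicate 1 height of 20.9 and no peak in replicate 2. The part of that window with its site, 30 bases long because the window meets an untranslated region, is given here to show the site close to the gene start.
elt-7, V:4770748-4770777: catctgttacgaCTATCAtgaatgagccgc
In this window 11.7% of the 31-base words are repeated in the genome, the largest share of the 9 windows.

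**Figure D3:**
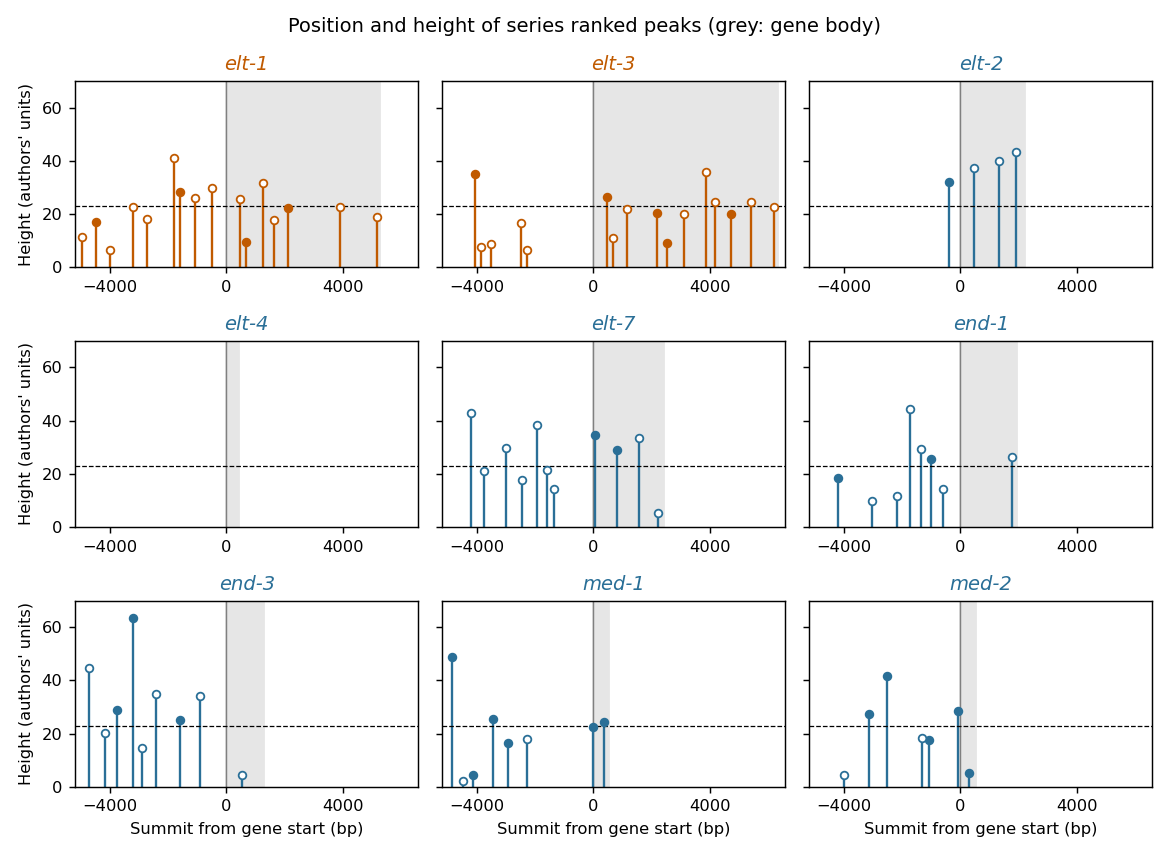
Distance of each series ranked summit from the gene start (bp, negative upstream, strand taken into account) against its height (authors' units), filled where a GATA site lies within 75 bp, with the gene body in grey and the list's median height of 22.9 dashed. The 4 peaks of *elt-2* begin 398 bp upstream and rise towards the 3′ end to 43.5, the panel of *elt-4* is empty, and the highest peaks of *end-3*, *elt-7* and *med-1* lie far upstream of the start.

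*end-1* and *end-3* lie near each other on chromosome V and encode the factors that specify the endoderm. *end-1* (WBGene00001310, V:13985128-13987074, plus strand) had 8 peaks in 6.95 kb with heights from 9.72 to 44.4. Its strongest, 1744 bp upstream in intergenic sequence and nearest to *end-1* itself, had a series height of 44.4, a score of 385 and rank 9806. It matched a peak of height 28.4 in replicate 1 (score 103) and none in replicate 2. Of the 8 peaks, none had a peak in both replicates. The strongest had no GATA site in its window, whereas the peak 1025 bp upstream, of height 25.7 and met in replicate 2 only (17.7), had AGATAA on either side, the nearer 43.5 bp from the summit. Both are printed to show this difference.
end-1, V:13983309-13983459: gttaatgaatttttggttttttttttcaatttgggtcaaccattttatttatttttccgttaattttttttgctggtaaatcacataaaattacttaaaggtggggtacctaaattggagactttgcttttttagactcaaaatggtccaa
end-1, V:13984028-13984178: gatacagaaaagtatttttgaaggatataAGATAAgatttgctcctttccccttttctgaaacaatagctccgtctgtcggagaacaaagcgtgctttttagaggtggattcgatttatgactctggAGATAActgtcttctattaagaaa

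*end-3* (WBGene00001311, V:14014695-14015980, plus strand) had 9 peaks in 6.29 kb with heights from 4.36 to 63.5. Its strongest peak, 3216 bp upstream, had a series height of 63.5, a score of 626 and rank 1402, which put it above 98.8% of the peaks of that list. That peak's height was also high in both replicates, 33.2 in replicate 1 (score 38, rank 3025) and 33.8 in replicate 2 (score 402, rank 1474). Its score in replicate 1 was only the median score of that list. In the second series list its score was 755. None of these scores reached 830. Compared with the strongest peak of all genes, the strongest of *end-3* stood above 89.9% in the series list, 79.5% in replicate 1 and 90.2% in replicate 2. In replicate 2 that strongest peak was another one, 4729 bp upstream in an exon of *ddx-17*, with a height of 34.4 and a score of 228. The summit of the series peak 3216 bp upstream was in a coding exon of *ddx-17*, named for a DEAD-box RNA helicase. It lay 573 bp from the start of that gene and thus much nearer to it than to *end-3*. Its TGATAG, in the sequence printed first above, lay 3.5 bp from the summit. Of the 9 peaks in the window, 2 were nearest to the start of *end-3*. One of these, in the promoter at 900 bp upstream, had a series height of 34.0, a height of 3.62 in replicate 1 and 23 in replicate 2 at the nearest summits, and no site. A taller replicate 1 peak that also overlapped it, of height 14.5, had its summit 1096 bp upstream in the 3′ UTR of *aip-1*. The other was in the coding sequence, with a height of 4.36. The second series list also had a promoter peak 92 bp downstream of the start, of height 28.9 and with a GATA site. Replicate 2 had a peak of height 20.6 at 93 bp downstream, and replicate 1 had none there.

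*med-1* (WBGene00003180, X:12430609-12431133) and *med-2* (WBGene00003181, III:6884503-6885027), both on the plus strand, encode the factors that act before *end-1* and *end-3*. They are near copies, with 512 of 525 bases of the gene body identical (97.5%) and 94 of the first 100 bases upstream, and 54.7% of the 31-base words of each gene occur elsewhere in the genome. How reads that match either copy were counted was not found in the labels or file texts, so values in the gene bodies and proximal promoters are uncertain. *med-1* had 8 peaks and *med-2* 7, each in 5.53 kb, and GATA sites were near 6 and 5 of their summits, against 17 of the 64 summits of the other genes. Near the start, *med-1* had a peak 29 bp upstream with a series height of 22.5, no peak in replicate 1 and 8.99 in replicate 2. At *med-2* the corresponding peak, 82 bp upstream, had a height of 28.6, no peak in replicate 1 and 16.7 in replicate 2. The windows of these 2 peaks are printed because they share a TTATCA at the same distance from both starts, within the near-identical stretch.
med-1, X:12430505-12430655: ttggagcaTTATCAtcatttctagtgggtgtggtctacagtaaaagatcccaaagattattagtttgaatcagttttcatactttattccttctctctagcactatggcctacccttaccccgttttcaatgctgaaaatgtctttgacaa
med-2, III:6884346-6884496: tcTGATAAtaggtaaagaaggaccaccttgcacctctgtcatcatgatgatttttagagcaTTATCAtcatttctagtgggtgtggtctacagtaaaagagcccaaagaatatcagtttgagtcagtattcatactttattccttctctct

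The strongest peaks of the pair lay far from the near-identical stretch, in untranslated regions of other genes. That of *med-1*, 4863 bp upstream and 16 bp from the start of *T24D3.2* in its 5′ UTR, had a series height of 48.8, the lowest score of the 8 strongest peaks, and heights of 26.4 in replicate 1 and 17.2 in replicate 2. That of *med-2*, 2528 bp upstream in the 5′ UTR of *K04C2.7*, had a series height of 41.5, a score of 224, a height of 32.4 in replicate 1 and no peak in replicate 2. It was not in the second series list, where the highest peak of *med-2* was the promoter peak at 28.6. The 30 bases around the single site of *med-1* and around the site of *med-2* nearest to its summit are shown, as these are the strongest peaks of the pair.
med-1, X:12425765-12425794: ggtataaaatcgTTATCAattgactgactt
med-2, III:6881985-6882014: aaatctcccccaCTATCAccagcttaccgg

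The strongest series peak was met by peaks of both replicates for *elt-1*, *elt-2*, *elt-7*, *end-3* and *med-1*, 5 of the 8 genes with a peak, and of replicate 1 alone for *elt-3*, *end-1* and *med-2*. Over all 79 peaks, 20 (25.3%) overlapped a peak of both replicates by at least 1 bp and 24 (30.4%) of neither. Over the whole series ranked list these shares were 26.6% and 28.6%. They cover peaks of every height and are no background for the 5 of 8. The share for the strongest peaks of all protein-coding genes was not computed. One replicate peak can meet 2 neighbouring series peaks, as at *elt-1*, and where several replicate peaks overlapped a series peak the tallest was not always the nearest. For the strongest peak of each gene the tallest and the nearest were the same peak. The strongest ranked peak of the window exceeded the median over all genes for 5 of the 9 genes in replicate 1 (*elt-3*, *elt-2*, *end-1*, *end-3* and *med-2*, median 26.7) and in replicate 2 for *end-3* (median 23.5). The gene above the median in both replicates was *end-3*.

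**Figure D4:**
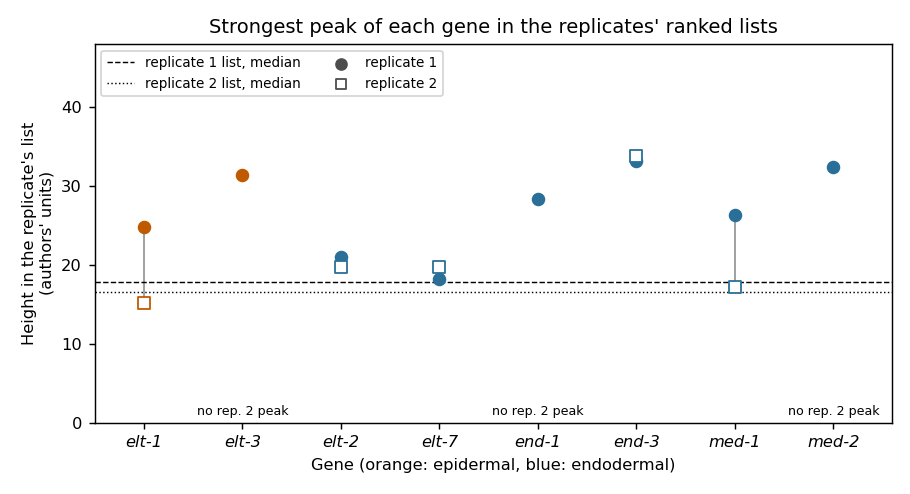
Height, in each replicate's own ranked list (authors' units, circles replicate 1, squares replicate 2), of the peak that overlaps the strongest series peak of each gene, with the list medians of 17.9 (dashed) and 16.6 (dotted). The 2 values of *end-3*, 33.2 and 33.8, are the highest pair, and *elt-3*, *end-1* and *med-2* have no peak in replicate 2.

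In the series ranked list, each epidermal gene had more peaks than any endodermal gene, in a longer window, and the pooled epidermal peaks had the lower median height. Per kb of window the genes of the classes overlapped, with 1.56 for *elt-1* and 1.41 for *elt-3* beside 1.48 for *elt-7*, 1.45 for *med-1* and 1.43 for *end-3*. *elt-1* and *elt-3* together had 32 peaks, or 1.48 per kb, with a median height of 21.3 and a highest of 41.1. The 7 endodermal genes had 47, or 1.06 per kb (1.21 without *elt-4*), with a median height of 25.5 and a highest of 63.5, so the ranges of the classes overlapped widely. Gene by gene the medians overlapped too, with 22.5 for *elt-1* and 20.3 for *elt-3* beside 22.1 for *end-1*, 20.3 for *med-1* and 18.2 for *med-2*, and the higher medians were those of *elt-2* (38.7), *elt-7* (28.9) and *end-3* (28.9). The order of the densities was reversed in replicate 1, with 0.51 peaks per kb in the epidermal and 0.68 in the endodermal windows, and was 0.69 and 0.59 in replicate 2. In terms of the series ranked list, the median peak of the epidermal genes stood at percentile 45.2 and that of the endodermal genes at 57.5. The order of the percentiles was the same in replicate 1 (32.0 and 49.9) and in replicate 2 (32.0 and 52.5), whose reads also entered the series list. With 10000 bp upstream in place of 5000, the medians were at 41.4 and 43.4, both below the middle of the list. Above the list's median height were 11 of the 32 epidermal peaks (34.4%) and 26 of the 47 endodermal peaks (55.3%). Peaks of one gene are not replicates, and a comparison of 2 genes with 7 was not tested.

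A GATA site lay near 9 of the 32 epidermal summits (28.1%, 13.7 to 46.7) and near 19 of the 47 endodermal summits (40.4%, 26.4 to 55.7), and these exact 95% intervals overlap. In replicate 1 the shares were 45.5% (5 of 11) and 50% (15 of 30), and in replicate 2 they were 40.0% (6 of 15) and 42.3% (11 of 26), closer to each other than in the series list. Of the 19, *med-1* and *med-2* held 11. Site density in the windows ran the other way, 3.61 per kb in the epidermal and 2.98 per kb in the endodermal windows. Summits of the epidermal genes were mostly nearest to the start of the gene itself (27 of 32), and those of the endodermal genes less so (22 of 47). Promoter peaks of the series ranked list were 1 in the 2 epidermal genes and 6 in the 7 endodermal genes, with promoters of equal length. In the second series list they were 2 and 8. Neither the nearest starts nor the promoter peaks are set beside all protein-coding genes here. Peaks met by both replicates were 6 of the 32 (18.8%) and 14 of the 47 (29.8%).

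As a frame, 19 genes that act above, beside or below these factors in endoderm or epidermis were read in the same way, *egl-18* and its partner *elt-6* among them. The 19 were chosen with results of these data known. A series thresholded peak lay in the window of 1 of them, *egl-18* itself, where the highest height in the ranked list was 81.1 and the highest score 1000. Neither replicate's thresholded list had a peak in that window. A ranked peak at a score of 540 or more lay in the windows of 6 of the 19. Over all genes these shares were 5.47% for a series thresholded peak and 18.3% for that score, so the count of 1 of 19 is near the background. For *elt-6*, the neighbouring and partly redundant GATA gene, the highest height was 59.0 and the highest score 510, and in the second series list its highest score was 558, above 540. Of the 19, 14 exceeded the median strongest height over all genes, where 2 of the 9 GATA factor genes did. Their windows were longer, with a median of 10.5 kb against 6.95 kb, and the part of window length in these counts was not tested.

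Outside the windows, the series thresholded peak nearest to a start lay 13.9 kb downstream of *end-3* and 21.6 kb downstream of *med-1*. For *elt-4*, *elt-7*, *end-1*, *elt-2*, *elt-1* and *elt-3* it lay between 39.8 and 62.2 kb away, and for *med-2* 257 kb away. The median over all protein-coding genes was 56.1 kb. The thresholded peak nearest to *end-3*, with a height of 79.3, was 1134 bp from the start of *T08G5.3*, and the same peak was the nearest to *end-1*, at 43.5 kb.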

How the data were processed

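Peaks of anti-GFP ChIP-seq were analysed from 8 deposited lists on ce11, 2 made from each replicate alone and 4 for the series made from both. Height is the signal column as deposited, on an unstated scale. The score, as deposited by the authors, equals -125 times the log2 of the global IDR, capped at 1000, to within 1 for at least 99.99% of the peaks in every ranked list. Of the −log10 columns that the authors deposited, the global IDR served this check, and the q-value and local IDR were not used. Per the deposited descriptions, thresholded lists used 1 further input file, not analysed here. How the 2 series ranked lists differ is not stated, and their columns of input heights were not used. Aligner, peak caller and settings were not given in the sources used here. Peak lists hold no read counts, so depth is unknown, and intervals cover the number of peaks only.

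A peak belonged to a gene when its summit lay in the gene body or up to 5000 bp upstream by strand (Ensembl release 115, WBcel235). No peak ended beyond a chromosome end. GATA sites on either strand were sought up to 75 bp from summits in the RefSeq genome, and replicate peaks were matched by an overlap of at least 1 bp, the tallest counting where several overlapped unless the nearest summit is named. A repeated 31-base word occurs more than once in the genome on either strand. Ranks follow height. Genes were named by rule: the 9 GATA factor genes, the gene nearest to a strongest peak, listed regulators with a thresholded peak, *egl-18* and *elt-6*. Others (*meg-1*, *aip-1*, *T08G5.3* and the genes of the gap) were named after their values were seen. The genes and lists were chosen with earlier results of these data known. Assignment and site search were tested on simulated data. Alternatives changed the window, the assignment, the list, the score, the site and the genes. Calculations ran in Python 3.11.15 (scipy 1.17.1, pandas 2.3.3, numpy 2.4.6) and figures in matplotlib 3.10.9.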

Additional observations from a re-analysis of the deposited data

How the results depend on the processing

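Of 62 alternative values, 29 stayed within the tolerance set for the result and 33 moved. With 10000 bp upstream, with any overlap of peak and window and in the other series thresholded list, 0 genes again had a thresholded peak. With 2000 bp upstream, with promoters only and by nearest start, 0 was fixed in advance, because these alternatives only remove peaks. Without replicate 1 or 2, the 0 repeats the replicate lists given above. The single gene at a score of 540 or more became 0 with 2000 bp upstream, with promoters only, with summits given to the nearest start only and at a score of 830, and was 0 without replicate 1 and without replicate 2. The 79 ranked peaks became 47 with 2000 bp upstream, 130 with 10000 bp, 7 in promoters and 49 by nearest start, and were 41 without replicate 1 and 41 without replicate 2. The 35.4% of summits with a GATA site became 57.1% in promoters, 59.5% within 150 bp and 72.2% for the letters GATA alone, and ran from 41.5% to 48.8% when 1 replicate was left out. The median percentile of epidermal peaks, 45.2, became 49.7 with 2000 bp, 41.4 with 10000 bp, 68.5 in promoters, 47.3 by nearest start, 43.2 by any overlap with the window and 38.3 in the second series list, and was 32.0 when either replicate was left out. That of endodermal peaks, 57.5, became 60.0, 43.4, 69.9 and 62.8 under the first 4 of these, ran from 49.9 to 52.5 without 1 replicate and was 66.4 without *med-1* and *med-2*. The endodermal median stayed above the epidermal one under each window, assignment and list, by the least in promoters. There the epidermal value was that of 1 peak, at *elt-1*, beside 6 endodermal peaks. These alternatives draw on overlapping peaks and reads and are not independent of each other. For support of the strongest peak in both replicates, alternatives were chosen after seeing the data: 5 genes became 1 in promoters and 3 by nearest start. The count was 4 with 2000 bp upstream, 7 with 10000 bp, 6 by any overlap and 5 in the second series list. These last values were counted as within the tolerance, the 7 included. A value without 1 replicate comes from the other replicate's own, smaller list. The cause of these moves was not tested. With 1 group, no paired analysis was possible because there were no groups to pair. Lists without counts limit what can be said of low peaks.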
